A study of Homo sapiens with 16 samples.

Results

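The comparison concerned both culture replicates of one experiment on LNCaP, a human prostate cancer cell line (clone FGC) that depends on androgen for growth. All 16 libraries entered it, 8 of biological replicate 1 and 8 of biological replicate 2, and each library of one number was set against the library of the other number that had received the same treatment. The 8 treatments were vehicle (VEH), dihydrotestosterone (DHT), and 3 antiandrogens, given without DHT or with it, which were bicalutamide (BIC.VEH and BIC.DHT), enzalutamide (ENZ.VEH and ENZ.DHT) and apalutamide (APA.VEH and APA.DHT). All cells were first grown for 72 h in medium with 5% serum, moved for 48 h to 5% serum stripped of steroids with charcoal, and then treated for 48 h with 10 nM DHT, 10 µM antiandrogen or the solvents. Messenger RNA was measured as TPM, a level corrected for transcript length and scaled to a fixed total within each library. Some labels also carry a letter. In replicate 1 it is A for VEH, BIC.VEH and BIC.DHT and C for DHT and APA.VEH. The ENZ.VEH, ENZ.DHT and APA.DHT libraries of replicate 1 have none. In replicate 2 it is B for VEH and DHT, and the others have none. The labels do not say what the letters mark, or whether the 8 libraries of one number came from 1 culture. Replicate number thus cannot be told apart from cell passage, harvest, RNA extraction or sequencing run. The p-values below therefore ask whether a difference was shared by the 8 treatments, and not whether cultures of LNCaP in general differ.

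Cells that divide pass through a DNA synthesis phase (S) and a mitotic phase (G2/M), and each phase has its own set of genes. E2F factors drive the S phase genes. The DREAM and MuvB complexes act on the later G2/M genes through the cell cycle genes homology region (CHR element). The CCAAT box is a separate motif that is common in G2/M promoters. In LNCaP cells androgen is known to drive proliferation, so the same genes are commonly read as a response to DHT. Growing cells also make more ribosomes. Metallothioneins, NRF2 targets and lysosomal genes answer to metals, oxidants and the supply of nutrients.

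The identity of the cells was checked with 11 genes that mark LNCaP, among them KLK3, TMPRSS2 and HOXB13, and all 11 reached 1 TPM. Their summed level ran from 2626 to 8382 TPM in replicate 1 and from 2868 to 6284 TPM in replicate 2. Markers of other cells were low. Of 12 leukocyte markers 1 reached 1 TPM in enough libraries to be tested, and 4 were listed at 0 in every library. Between 14652 and 15360 genes reached 1 TPM in a library. The libraries ENZ.DHT and APA.DHT of replicate 1 had the highest scores on the third principal component, 29.4 and 19.6. The next was 13.7, in APA.VEH of replicate 2. The pairs of ENZ.DHT and APA.DHT differed by more than 2-fold in 5.70% and 6.16% of genes, against 2.45% to 3.97% in the other 6 pairs. For several lists below the counts without these pairs are also given.

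Between the replicates 6694 of 16636 genes tested differed (limma with Benjamini-Hochberg adjustment, adjusted p below 0.05), which is 40.2% of genes, with 3885 higher in replicate 2 (23.4%) and 2809 lower (16.9%). Most of these differences were small. The median size among called genes was 0.34 on the log2(TPM + 1) scale, and 213 called genes (1.28%) differed by 2-fold or more, 183 of them higher in replicate 2 and 30 lower. All 8 libraries of replicate 2 lay above all 8 of replicate 1 for 764 genes (4.59%) and below them for 317 genes (1.91%). Of the called genes 4578 (68.39%) had the same sign in all 8 treatment pairs. The balance of directions depended on the scaling and on the pairs used. The share of calls that were higher in replicate 2 was 58.0% as reported, 52.0% after median-ratio scaling, 48.3% with the mitochondrial genes left out, 47.4% with length and GC trends removed, and 50.4% without the ENZ.DHT and APA.DHT pairs, where 7028 genes were called. Over all genes tested 21.3% were higher and 20.9% lower without those pairs, and 21.3% and 23.6% with the trends removed. The share of calls that were higher was 72.4% with the 4 DHT pairs alone and 44.3% with the 4 pairs without DHT alone.

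On the first principal component, which held 32.96% of the variance, replicate 2 scored higher than replicate 1 in all 8 treatments. For the median gene the treatment held 49.6% of the sum of squares and the replicate number 16.4%, and in 4088 genes (24.6%) the replicate number held more than the treatment. The differences also followed base composition. Across 13978 genes with a known transcript, the log2 difference had a Spearman correlation of -0.40 with GC content, from -0.49 to -0.14 in single pairs, so that genes rich in A and T were more often higher in replicate 2 (genes share libraries and are not independent). The part of GC content in the differences was not tested beyond a version with its trend removed, which is given for several lists below. The share of TPM from mitochondrially encoded genes was 18.7 ± 2.08% (SD, n = 8) in replicate 1 and 16.3 ± 0.743% (SD, n = 8) in replicate 2 and fell in 8 of 8 pairs (exact permutation test, two-sided, p = 0.0078, the smallest value this design allows, adjusted p = 0.027 over 7 library measures). The share of ribosomal protein genes rose from 14.1 ± 1.91% to 16.9 ± 0.858% (SD, n = 8 each), with the same exact p and adjusted p.

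**Figure D1:**
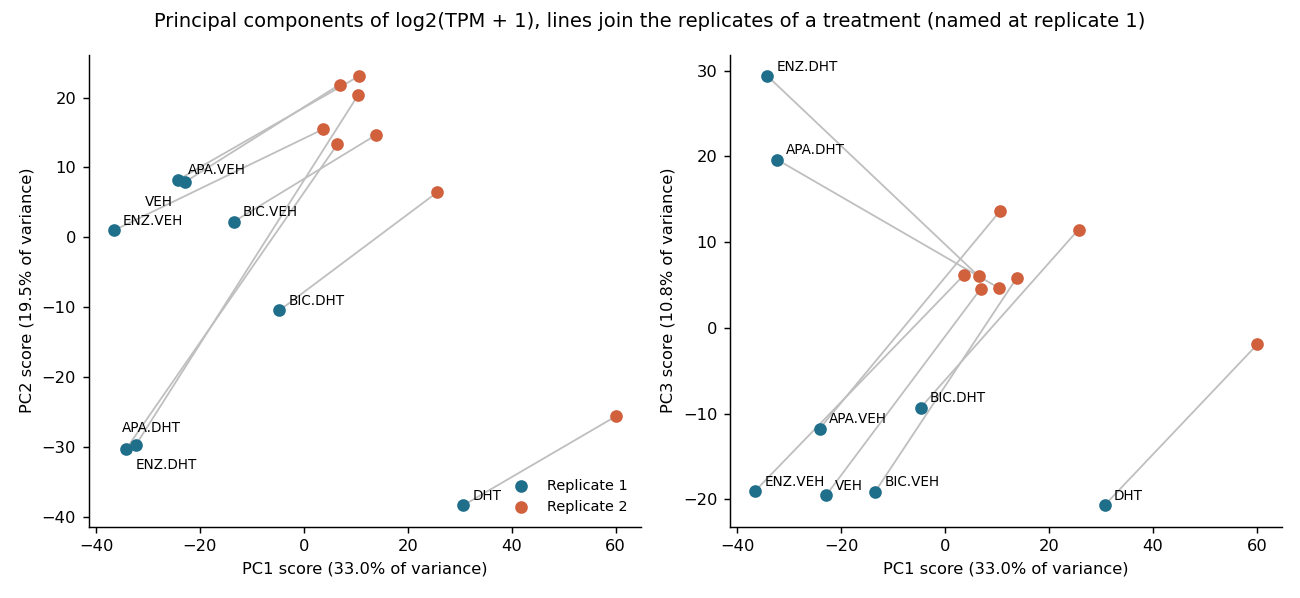
Scores of the 16 libraries on the first 3 principal components of log2(TPM + 1), with PC1 against PC2 at the left and PC1 against PC3 at the right, blue points for replicate 1, orange points for replicate 2 and a grey line joining the replicates of a treatment. Every line runs to the right from replicate 1 to replicate 2, and the ENZ.DHT and APA.DHT libraries of replicate 1 sit at the top of the right panel.

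The G2/M genes were the group with the highest median difference. Of 54 listed genes, all 54 were tested, 51 were higher in replicate 2, 1 was lower and 2 were not called, beside 23.4% of all genes higher and 16.9% lower. Their median log2 difference was 1.33, against 0.03 over all genes tested, and 1.16 with length and GC trends removed. Here and below a gene that rose was higher in replicate 2. In bulk RNA more cells in a phase and more RNA per cell cannot be told apart. The median GC content of these transcripts was 43.5%, below the 49.6% of all genes with a value. The 3 genes of the list with the highest differences were NUSAP1, which bundles spindle microtubules, HMMR, a spindle assembly factor, and TOP2A, the topoisomerase that untangles sister chromatids. Their promoters, chosen by difference and not by motif, are shown with marks for the motifs through which G2/M genes are controlled. Each is the 250 bases before the gene's start in RefSeq (build GRCh38.p14), read in the direction of the gene, and capitals mark the CHR element (TTTGAA or TTCGAA) and the CCAAT box on either strand. NUSAP1 lies at chr15:41332631-41332880 on the plus strand, HMMR at chr5:163460382-163460631 on the plus strand and TOP2A at chr17:40417897-40418146 on the minus strand.
NUSAP1: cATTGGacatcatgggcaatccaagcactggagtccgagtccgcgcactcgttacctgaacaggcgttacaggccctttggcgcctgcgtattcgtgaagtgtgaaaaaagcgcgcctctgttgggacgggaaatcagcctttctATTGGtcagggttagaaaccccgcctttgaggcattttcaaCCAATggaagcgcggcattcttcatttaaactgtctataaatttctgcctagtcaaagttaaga
HMMR: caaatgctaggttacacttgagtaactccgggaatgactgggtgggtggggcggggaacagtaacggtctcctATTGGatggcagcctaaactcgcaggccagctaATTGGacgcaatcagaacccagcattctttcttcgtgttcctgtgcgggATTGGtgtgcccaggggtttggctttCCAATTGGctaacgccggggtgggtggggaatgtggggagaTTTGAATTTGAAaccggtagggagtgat
TOP2A: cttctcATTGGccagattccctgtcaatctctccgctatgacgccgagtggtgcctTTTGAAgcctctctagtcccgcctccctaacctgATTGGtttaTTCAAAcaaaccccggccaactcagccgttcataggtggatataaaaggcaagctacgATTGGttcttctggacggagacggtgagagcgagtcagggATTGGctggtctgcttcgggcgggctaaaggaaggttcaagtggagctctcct

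The window of NUSAP1 held 3 matches, all of the CCAAT box, while HMMR held 7 and TOP2A 6 matches of both kinds in all. Promoter windows were found for 46 of the 54 G2/M genes, and 25 of these (54.35%) held a CHR element and 33 (71.74%) a CCAAT box. Over the 10570 promoters of tested genes the shares were 9.40% and 35.75%. The match of letters is a description of the sequence and not of binding.

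TOP2A stood between 0.68 and 11.3 TPM (median 3.96) in the 8 libraries of replicate 1 and between 12.5 and 31.1 TPM (median 16.8) in those of replicate 2. No library of replicate 1 reached the lowest of replicate 2, although the DHT library of replicate 1 came close to it. The log2 difference was 2.02 ± 0.18 (SE, 8 pairs), with an adjusted p of 2.04e-05 by limma. NUSAP1 ranged from 2.27 to 38.3 TPM (median 8.62) in replicate 1 and from 31.0 to 89.7 TPM (median 34.5) in replicate 2, a log2 difference of 2.05 ± 0.21 (SE), and the ranges overlapped through the DHT library of replicate 1. HMMR ranged from 0.82 to 15.8 TPM (median 3.36) and from 13.1 to 39.7 TPM (median 16.7), with a difference of 2.04 ± 0.18 (SE). MKI67, the Ki-67 protein used to count dividing cells, had 0.83 to 11.7 TPM (median 2.19) in replicate 1 and 7.90 to 24.4 TPM (median 9.64) in replicate 2. Its difference was 1.70 ± 0.15 (SE) and it was higher in replicate 2 in 8 of 8 pairs.

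CDK1, the kinase that starts mitosis, rose by 1.44 ± 0.08 (SE) on the log2 scale, from a median of 34.3 TPM to 98.96 TPM, and its partner CCNB1 by 1.34 ± 0.08, from 29.6 to 76.3 TPM. Among the anaphase genes PTTG1, which encodes securin, rose by 1.89 ± 0.25, CDC20, an activator of the anaphase-promoting complex, by 1.78 and its partner UBE2C by 1.71. PBK, a mitotic kinase, rose by 1.86 ± 0.17 and BIRC5, the survivin subunit of the chromosomal passenger complex, by 1.83. The exception was TUBB4B, a beta tubulin that resting cells also make, which fell from a median of 665 TPM to 528 TPM, a difference of -0.32 ± 0.05 (SE). The 2 members that were not called were RANGAP1, with a difference of 0.00, and ANP32E, with 0.26 (adjusted p = 0.072 by limma). Of the 54 genes, 11 had no overlap between the replicates in the higher direction, beside 4.59% of all genes.

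The S phase and replication genes differed in the same direction and by less. Of 50 genes 48 were higher in replicate 2, none was lower, and CHAF1B (0.02) and RFC2 (0.07) were not called. The median difference was 0.80, or 0.70 with length and GC trends removed, and 1 gene of the list (2%) had no overlap between the replicates, beside 4.59% of all genes. RRM2, a subunit of the reductase that makes deoxynucleotides, ranged from 2.73 to 55.1 TPM (median 7.95) in replicate 1 and from 26.7 to 113 TPM (median 35.7) in replicate 2. Its ranges overlapped and its difference was 2.01 ± 0.20 (SE). The licensing factor CDC6 rose by 1.69, the thymidine kinase TK1 by 1.72, the thymidylate synthase TYMS by 1.29, and the helicase subunits MCM5 and MCM2 by 1.13 and 0.97. DTL, which directs the destruction of licensing factors, and UHRF1, which maintains DNA methylation, were the 2 members with the highest differences (1.62 and 1.46) whose promoters held an E2F site, and those windows follow with the E2F site (TTTGGCGC, TTTCCCGC, TTTGCCGC or TTTCGCGC) and the CCAAT box in capitals, on either strand. They lie at chr1:212035498-212035747 and chr19:4909251-4909500, both on the plus strand.
DTL: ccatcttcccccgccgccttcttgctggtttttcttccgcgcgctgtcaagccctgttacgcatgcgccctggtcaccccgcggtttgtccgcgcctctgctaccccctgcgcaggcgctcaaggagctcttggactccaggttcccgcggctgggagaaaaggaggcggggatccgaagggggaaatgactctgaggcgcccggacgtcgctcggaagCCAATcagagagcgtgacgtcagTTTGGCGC
UHRF1: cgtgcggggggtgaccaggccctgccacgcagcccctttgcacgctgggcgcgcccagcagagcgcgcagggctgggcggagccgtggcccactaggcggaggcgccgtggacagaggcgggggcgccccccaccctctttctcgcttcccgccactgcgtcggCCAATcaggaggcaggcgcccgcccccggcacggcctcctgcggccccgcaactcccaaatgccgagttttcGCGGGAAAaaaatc

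Each of these windows held 1 E2F site and 1 CCAAT box. Of the 40 S phase genes with a promoter window 14 (35%) held an E2F site, against 4.465% of all promoters, and 2 (5%) held a CHR element. Among the 46 G2/M windows 2 (4.348%) held an E2F site.

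**Figure D2:**
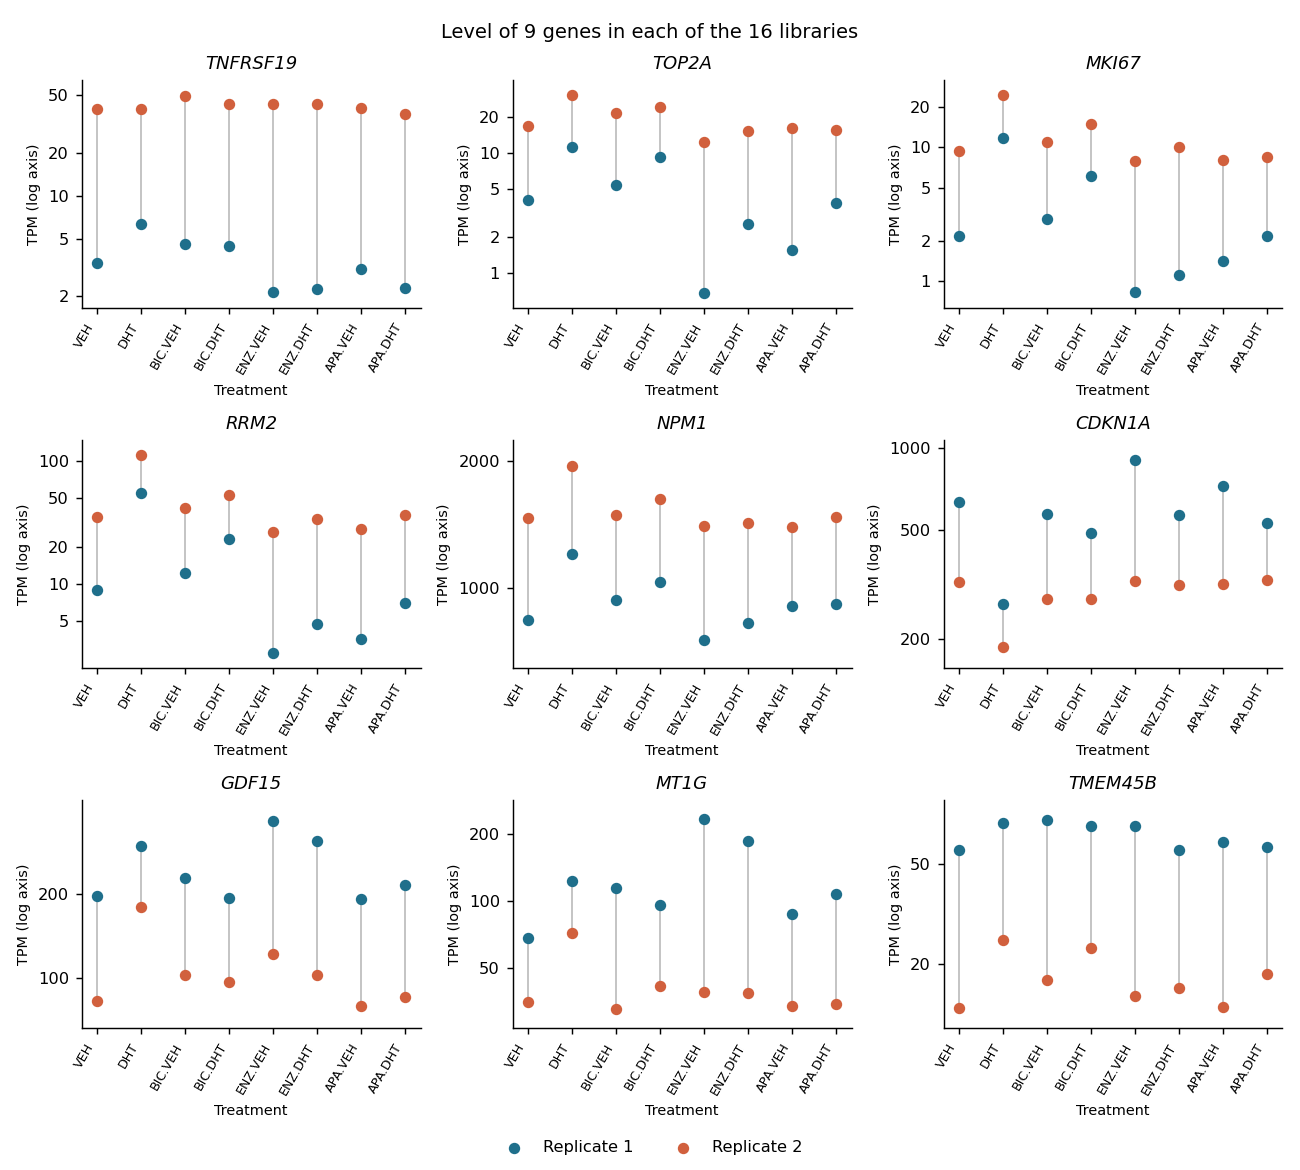
Level of 9 genes in TPM (log axis) in each treatment, blue for replicate 1 and orange for replicate 2, with a grey line joining the replicates. TNFRSF19 sits between 37.1 and 49.9 TPM in replicate 2 and below 7 TPM in replicate 1, while CDKN1A, GDF15, MT1G and TMEM45B are lower in replicate 2 in all 8 treatments.

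Some genes that brake the cycle differed. CDKN1A, the p21 inhibitor of cyclin-dependent kinases, ranged from 269 to 898 TPM (median 571) in replicate 1 and from 188 to 328 TPM (median 317) in replicate 2. It was lower in replicate 2 in all 8 pairs, with a difference of -0.94 ± 0.09 (SE, adjusted p = 3.08e-05 by limma). GDF15, a stress cytokine and p53 target, went from 191 to 364 TPM (median 221) down to 79.3 to 179.9 TPM (median 99.6), without overlap, a difference of -1.23 ± 0.09 (SE). CDKN2B, the p15 inhibitor, fell by 0.68 on the log2 scale. SESN1, a p53 target that restrains growth signalling, rose by 0.59 ± 0.06. Over the list of 30 CDK inhibitors and p53 targets 5 were higher (16.7%) and 7 lower (23.3%), beside the 23.4% and 16.9% of all genes, with a median of 0.05. E2F1 rose by 0.78 ± 0.09, from a median of 6.41 to 11.9 TPM. CCND1, the G1 cyclin, had a median of 99.1 TPM in replicate 1 and 116.1 TPM in replicate 2 and a difference of 0.30 ± 0.11 (SE, adjusted p = 0.060), which was not called.

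The replicate difference in proliferation genes can be set beside the difference between DHT and vehicle. Within replicate 1 the G2/M genes stood a median of 1.37 higher on the log2 scale in the DHT library than in the VEH library, and within replicate 2 they stood 1.00 higher. The VEH library of replicate 2 lay within a median of -0.07 of the DHT library of replicate 1. For the S phase genes the androgen difference was 0.99 and 1.00, and the VEH library of replicate 2 lay at a median of -0.30 from the DHT library of replicate 1. The androgen-induced genes did not have this pattern, with 1.70 in replicate 1, 2.03 in replicate 2 and -1.72 between the VEH library of replicate 2 and the DHT library of replicate 1. TOP2A gives an example in single libraries. It had 4.10 TPM in VEH and 11.3 TPM in DHT in replicate 1, and 17.1 TPM in VEH and 31.1 TPM in DHT in replicate 2. Each of these figures compares single libraries and has no replicate of its own. In replicate 1 the DHT and VEH libraries also carry different letters in their labels, C and A. Their difference cannot be told apart from what the letters mark.

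How the replicates were handled changed which genes were called for DHT against VEH. Without a term for the replicate number 1709 genes were called, and with it 4559. Of the 54 G2/M genes 1 was called without the term and 49 with it, and of the 50 S phase genes 1 and 45. The median standard error of the DHT difference in G2/M genes went from 0.82 to 0.20. The androgen-induced genes hardly depended on it, with 31 of 38 called without the term and 34 with it. For the G2/M genes the replicate number held a median of 60.3% of the sum of squares and for the androgen-induced genes 2.71%.

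Genes of ribosome production were higher in replicate 2. Of 40 ribosome biogenesis genes 36 were higher and none lower (median 0.37), beside 23.4% of all genes higher. Their summed level was 2556 to 3714 TPM in replicate 1 and 3753 to 5261 TPM in replicate 2. The summed ranges did not overlap. NPM1, a nucleolar chaperone, ranged from 754 to 1203 TPM (median 914) and from 1397 to 1945 TPM (median 1473), a difference of 0.72 ± 0.04 (SE, adjusted p = 2.67e-06 by limma), without overlap. Nucleolin (NCL) and fibrillarin (FBL) both rose by 0.54, and the helicase DDX21 by 0.56.

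Of 78 ribosomal protein genes 64 were higher and none was lower, with a median of 0.29, beside 23.4% of all genes higher. RPL21 had the highest difference, 0.71 ± 0.07 (SE), from a median of 1053 TPM to 1807 TPM, RPS3 rose by 0.61, and RPS27 was not called (-0.02). The ENZ.DHT and APA.DHT pairs, with list medians of 0.09 and 0.02, lay below the other 6, which ranged from 0.28 to 0.49. Without these pairs 73 of the 78 genes were higher, with median-ratio scaling 44, and with length and GC trends removed 49. Ribosomal protein genes have many processed copies in the genome, so how reads were divided between a gene and its copies is uncertain.

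**Figure D3:**
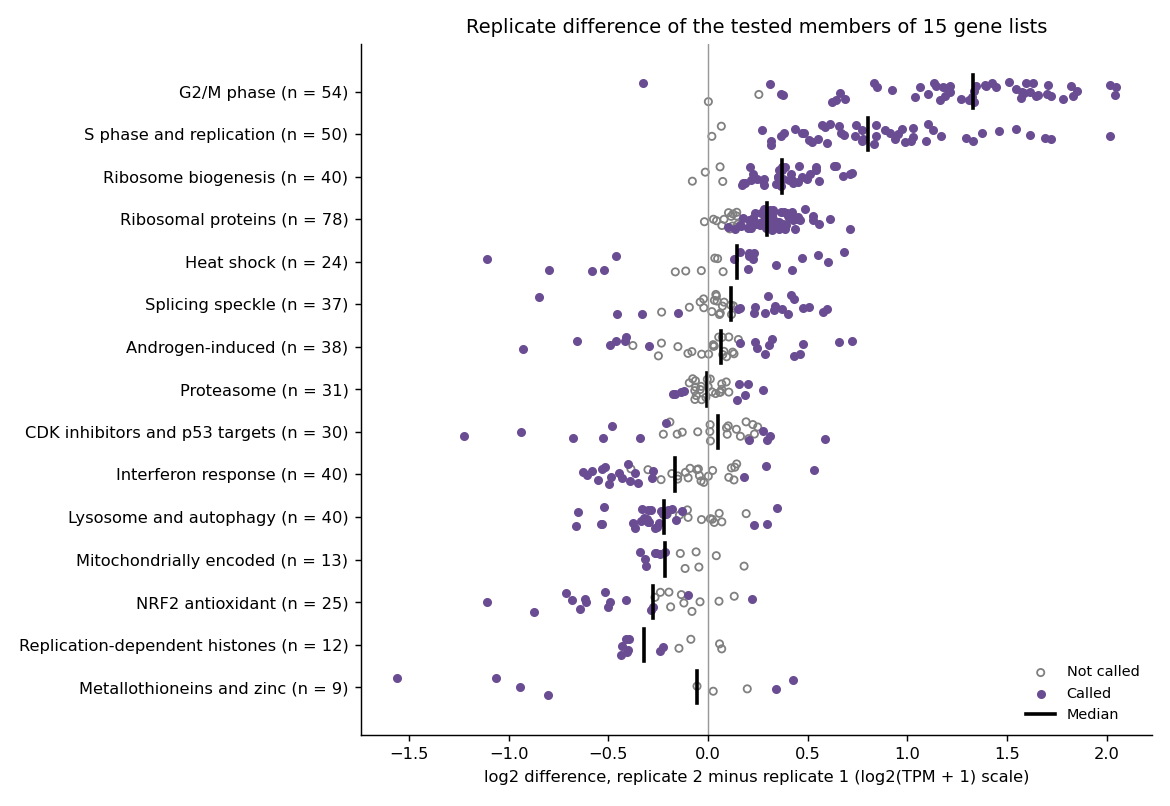
Log2 difference of single genes (replicate 2 minus replicate 1, horizontal axis) for each gene list, 1 point per tested gene of 15 gene lists, filled where the gene was called and open where it was not, with a black bar at the list median. The G2/M and S phase lists lie almost wholly to the right of 0, with medians of 1.33 and 0.80, and the lysosome and NRF2 lists lie mostly to the left, with medians of -0.22 and -0.28.

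The chaperones and splicing factors were less uniform. Of 24 heat shock genes 13 were higher and 5 lower (median 0.15), beside 23.4% and 16.9% of all genes, and with length and GC trends removed 9 and 5 (median 0.03). CHORDC1, a partner of HSP90, rose by 0.68 ± 0.05 (SE), HSPH1, a nucleotide exchange factor for HSP70, by 0.60 and HSPD1, the mitochondrial chaperonin, by 0.55, whereas the small heat shock proteins HSPB8 and HSPB1 fell by 1.11 ± 0.08 and by 0.52. HSPA1A did not pass the filter on low values. Of 37 genes of splicing and nuclear speckles 16 were higher (43.2%) and 4 lower (10.8%), beside 23.4% and 16.9% of all genes, with a median of 0.11. With the trends removed 9 were higher and 6 lower, with a median of -0.02. All libraries of replicate 2 lay above those of replicate 1 for 8 of the 37, beside 4.59% of all genes. SRSF7 rose by 0.60 ± 0.04 and SRSF3 by 0.57, both splicing factors, while the speckle RNA MALAT1 fell by 0.85 ± 0.22 and the paraspeckle RNA NEAT1 by 0.46. MALAT1 stood at 1773 TPM in its highest library of replicate 1, which was ENZ.DHT, against a median of 411 TPM.

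Lysosomal and antioxidant genes were lower in replicate 2. Of 40 lysosome and autophagy genes 25 were lower and 3 higher (median -0.22), beside 16.9% of all genes lower. TFEB, the master regulator of lysosome genes, went from 8.13 to 13.7 TPM (median 11.6) in replicate 1 to 5.33 to 8.38 TPM (median 6.93) in replicate 2. The ranges overlapped slightly, and the difference was -0.66 ± 0.06 (SE). The protease CTSD fell by 0.65, the autophagy receptor SQSTM1 by 0.54 and the membrane protein LAMP1 by 0.32, while the acid lipase LIPA rose by 0.34 ± 0.08. Of 28 lysosomal promoters 4 (14.29%) held the CLEAR element TCACGTGA, the site of TFEB, against 1.731% of all promoters. In the ENZ.DHT and APA.DHT pairs the list medians were -0.04 and -0.05, and without these pairs 29 genes were lower.

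Of 25 genes of the NRF2 antioxidant response 14 were lower (56%) and 1 was higher (median -0.28), beside 16.9% of all genes lower. Without the ENZ.DHT and APA.DHT pairs 18 were lower (72%), beside 20.9% of all genes. GPX2, a glutathione peroxidase, fell from a median of 4.28 TPM to 1.295 TPM, a difference of -1.11 ± 0.10 (SE), without overlap. FTH1, the ferritin heavy chain, fell by 0.62, HMOX1, which breaks down haem, by 0.61, GCLC, which starts glutathione synthesis, by 0.52 and NQO1, a quinone reductase, by 0.50. TKT, of the pentose phosphate pathway, rose by 0.22 ± 0.05. Of 18 promoters of this list 5 (27.78%) held the antioxidant response element TGACNNNGC, against 12.34% of all promoters.

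The metallothioneins, which bind zinc and copper, had some of the lowest differences. MT1G ranged from 68.6 to 236 TPM (median 111) in replicate 1 and from 32.8 to 72.0 TPM (median 36.8) in replicate 2, a difference of -1.56 ± 0.18 (SE, adjusted p = 0.000101 by limma), with a small overlap. MT2A fell by 1.06 ± 0.16, from a median of 269 to 136 TPM, MT1F by 0.94 and MT1X by 0.80. These genes are near copies of each other and lie side by side on chromosome 16, so the division of reads among them is uncertain. The zinc importer SLC39A10 rose by 0.43 ± 0.06. Of the 9 metallothionein and zinc genes tested 4 were lower (44.4%) and 2 higher (22.2%), beside 16.9% and 23.4% of all genes. The list median of -0.06 was -0.20 with length and GC trends removed, where 6 were lower, and -0.23 without the ENZ.DHT and APA.DHT pairs. The windows of MT2A (chr16:56608334-56608583) and MT1X (chr16:56682220-56682469), both on the plus strand, are shown with the metal response element (TGCGCNC or TGCACNC, on either strand) in capitals.
MT2A: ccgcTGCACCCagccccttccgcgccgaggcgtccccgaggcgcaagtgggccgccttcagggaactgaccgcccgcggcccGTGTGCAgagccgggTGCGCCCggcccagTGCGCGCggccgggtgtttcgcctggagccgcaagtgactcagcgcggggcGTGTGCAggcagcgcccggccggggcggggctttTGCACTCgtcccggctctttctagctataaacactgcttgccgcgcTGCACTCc
MT1X: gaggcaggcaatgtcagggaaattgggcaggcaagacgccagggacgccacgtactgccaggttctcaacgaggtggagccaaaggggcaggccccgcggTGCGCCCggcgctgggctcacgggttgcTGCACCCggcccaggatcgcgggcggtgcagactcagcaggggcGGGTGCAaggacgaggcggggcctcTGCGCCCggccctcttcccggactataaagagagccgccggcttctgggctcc

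MT2A held 7 matches and MT1X 4. Of 6 promoters of the list 3 (50%) held a match, against 33.22% of all promoters, so these letters are common.

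Histone, mitochondrial and interferon genes were lower as well. Of 12 replication-dependent histone genes that passed the filter 8 were lower and none higher (median -0.32), led by H1-2 with a difference of -0.44 ± 0.06 (SE). These transcripts mostly lack a poly(A) tail, and the libraries were made from poly(A) RNA, so only the tailed share was counted. The histone variant H2AJ, outside that list, fell by 1.13 ± 0.08, from a median of 125 to 55.3 TPM. Of the 13 mitochondrially encoded genes 7 were lower and none higher, MT-ATP6 with -0.34 ± 0.07 at the low end. Of 46 nuclear genes of the respiratory chain 12 were higher (26.1%) and 5 lower (10.9%), beside the 23.4% and 16.9% of all genes, and 20 were higher (43.5%) without the ENZ.DHT and APA.DHT pairs. Its members ran between ATP5MC3 at 0.34 ± 0.04 and NDUFA1 at -0.32 ± 0.06.

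Of 40 interferon response genes 16 were lower (40%) and 3 higher (7.5%, median -0.17), beside 16.9% of all genes lower and 23.4% higher. With length and GC trends removed 24 of 39 were lower (61.5%, median -0.28), beside 23.6% of all genes. IFI35 fell by 0.63 ± 0.06, IRF7, a transcription factor of the response, by 0.61, IFITM3, which blocks virus entry, by 0.50 and the antigen presentation gene HLA-C by 0.45, while OAS3, a sensor of double-stranded RNA, rose by 0.53 ± 0.09. Of 32 genes of TGF-beta signalling and matrix 13 were lower (40.6%) and 7 higher (21.9%), the higher share being near that of all genes. Fibronectin (FN1) fell from a median of 642 to 392 TPM (-0.70 ± 0.07) and the metalloproteinase MMP16 rose by 0.86 ± 0.12.

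Of the genes named by rule, the lowest difference was that of TMEM45B, a transmembrane protein. It ranged from 56.6 to 74.6 TPM (median 65.7) in replicate 1 and from 13.5 to 24.95 TPM (median 16.7) in replicate 2. The groups were far apart, with a difference of -1.84 ± 0.08 (SE, adjusted p = 9.07e-07 by limma), 3.59-fold lower in replicate 2. NNMT, which methylates nicotinamide, fell by 1.36 ± 0.23, CD68, a lysosomal glycoprotein common in macrophages, by 1.32 ± 0.19, the membrane protein BASP1 by 1.32 ± 0.10 and CYP1A1, a target of the aryl hydrocarbon receptor, by 1.25 ± 0.09. CD68 was the only leukocyte marker that could be tested, and the summed level of the 12 leukocyte markers ran from 2.88 to 12.5 TPM in replicate 1 and from 1.31 to 2.30 TPM in replicate 2, lower in all 8 pairs. Whether other cells had a part in it was not tested. CARTPT, a neuropeptide, fell by 1.21 ± 0.15, the filament protein SYNM by 1.20 ± 0.09 and the keratin KRT19 by 1.14 ± 0.13.

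The largest difference of all was that of TNFRSF19, a receptor of the tumour necrosis factor family, on chromosome 13. It had 3.40 TPM in VEH, 6.39 in DHT, 4.66 in BIC.VEH, 4.48 in BIC.DHT, 2.15 in ENZ.VEH, 2.25 in ENZ.DHT, 3.12 in APA.VEH and 2.29 in APA.DHT in replicate 1. In replicate 2 the values were 40.2, 40.4, 49.9, 43.4, 43.5, 43.7, 40.9 and 37.1 TPM in the same order. The groups were separated in every treatment, with a log2 difference of 3.30 ± 0.13 (SE, 95% interval 3.01 to 3.59, adjusted p = 4e-07 by limma), or 9.83-fold. The replicate number held 96.7% of the sum of squares of this gene and the treatment 1.87%.

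Several neighbours of TNFRSF19 moved with it. MIPEP, a mitochondrial peptidase that starts 159.8 kb from the start of TNFRSF19, went from a range of 5.97 to 25.3 TPM (median 8.20) to 34.5 to 76.0 TPM (median 38.9), a difference of 2.09 ± 0.09 (SE). PCOTH, a noncoding RNA, rose by 1.96 ± 0.12 (SE). SPATA13 and CENPJ, farther along, rose by 0.95 ± 0.07 and 0.84 ± 0.09, whereas PARP4 between them had 0.18 and was not called and the pseudogene FTH1P7 fell by 0.68. C1QTNF9B, which had a mean of 0.63 TPM in replicate 1 and 0.67 TPM in replicate 2, differed by 0.03 and was not called. PCOTH overlaps MIPEP and C1QTNF9B in position, and since the strand setting of the counting is not given in the sources used here, their reads may not be fully separable. Over the whole of chromosome 13 35.4% of genes were higher, beside 23.4% of all genes tested. Chromosome 2 had 38.2%, chromosomes 8 and 12 had 33.3% and 33.1%, and chromosome 19 had the lowest share, 17.1%.

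**Figure D4:**
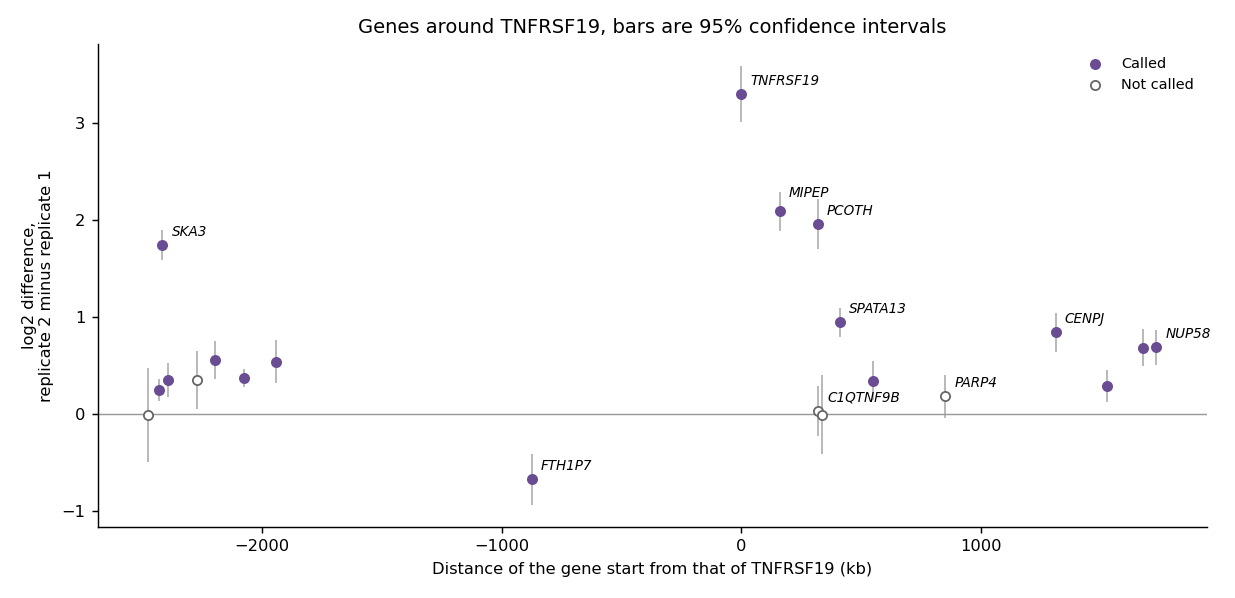
Log2 difference (replicate 2 minus replicate 1) of genes around TNFRSF19, drawn against their distance in kb from its start, with bars for the 95% confidence interval and open points for genes not called. TNFRSF19 at 3.30, MIPEP at 2.09 and PCOTH at 1.96 stand highest of the genes drawn. Other genes drawn were also called higher, among them SKA3 at 1.74, SPATA13 at 0.95 and CENPJ at 0.84, while PARP4 at 0.18 was not called.

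Another group of neighbours lay on chromosome 4 and held UGT2B15, UGT2B10 and UGT2B11, of an enzyme family that attaches glucuronic acid to steroids and other compounds. UGT2B11 ranged from 1.16 to 12.5 TPM (median 2.59) in replicate 1 and from 10.7 to 36.7 TPM (median 13.3) in replicate 2, a difference of 1.99 ± 0.11 (SE), with overlap through the DHT library of replicate 1. UGT2B15 and UGT2B10 rose by 1.27 and 1.06. These genes are close copies, so reads may be split uncertainly among them. EPHA3, a receptor tyrosine kinase, ranged from 1.85 to 3.69 TPM (median 2.93) and from 8.58 to 15.6 TPM (median 14.4), without overlap, with 1.97 ± 0.09, and TMSB15A, an actin-binding thymosin, from 1.67 to 7.65 TPM and 14.2 to 21.1 TPM, with 1.96 ± 0.12. For EPHA3 and TMSB15A the replicate number held 93.04% and 86.6% of the sum of squares.

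Of 38 androgen-induced genes 11 were higher (28.9%) and 7 lower (18.4%), close to the 23.4% and 16.9% of all genes, with a median of 0.06, or -0.07 with length and GC trends removed. KLK3, which encodes prostate-specific antigen, ranged from 30.4 to 4102 TPM (median 318) in replicate 1 and from 20.4 to 2422 TPM (median 103) in replicate 2. Its ranges overlapped almost fully and the treatment held 94.0% of its sum of squares, yet it was lower in replicate 2 in all 8 pairs, by 0.93 ± 0.16 (SE) on the log2 scale. KLK4 fell by 0.66 and TMPRSS2, a surface protease, by 0.49 ± 0.06, while KLK2 was not called (-0.38, adjusted p = 0.169 by limma). In the other direction ODC1, the first enzyme of polyamine synthesis, rose by 0.72 ± 0.07 and FKBP5, a co-chaperone of steroid receptors, by 0.32 ± 0.06. Of 25 luminal genes 2 were higher (TJP1 among them, 0.48 ± 0.09) and 7 lower (28%), beside 16.9% of all genes lower, and without the ENZ.DHT and APA.DHT pairs 15 were lower (60%), beside 20.9%. Among the 11 LNCaP markers 2 were higher and 2 lower, or 2 and 5 without these pairs.

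The metabolic lists held calls in both directions, to be read beside 23.4% of all genes higher and 16.9% lower. Of 36 genes of glycolysis and hypoxia 12 were higher (33.3%) and 8 lower (22.2%), with PDK1, which holds back pyruvate oxidation, at 0.74 ± 0.08 and LDHA, lactate dehydrogenase, at 0.67, and with EGLN3, an oxygen sensor, at -0.77 ± 0.09. Of 24 sterol genes 6 were higher (25%) and 4 lower (16.7%), near those of all genes, between INSIG1, a brake on sterol synthesis, at 0.47 ± 0.07 and TM7SF2 at -0.43 ± 0.04, and of 20 fatty acid genes 8 (40%) and 5 (25%), between GPAM at 0.58 ± 0.08 and ME1 at -0.41 ± 0.07. FASN, the fatty acid synthase, was not called (-0.09, adjusted p = 0.254 by limma). Without the ENZ.DHT and APA.DHT pairs the balance turned in 2 of these lists, beside 21.3% of all genes higher and 20.9% lower. Glycolysis and hypoxia then had 10 higher (27.8%) and 11 lower (30.6%), and fatty acids 7 higher (35%) and 9 lower (45%). Of 37 genes of the ATF4 amino acid response 11 were higher (29.7%) and 8 lower (21.6%). The serine synthesis enzyme PHGDH rose by 0.57, MTHFD2 of the folate pathway by 0.64, ASNS by 0.34 ± 0.09 and SLC7A1, a carrier of basic amino acids, by 0.74 ± 0.13, while SLC7A11, the cystine carrier, fell by 0.64 ± 0.14 and the stress factor DDIT3 by 0.61. Of 30 genes of folding in the endoplasmic reticulum 10 were higher (33.3%) and 2 lower (6.67%), from SEL1L at 0.52 ± 0.10 to WFS1 at -0.41 ± 0.07. With length and GC trends removed 7 were higher and 7 lower (23.3% each), beside 21.3% and 23.6% of all genes. Without the ENZ.DHT and APA.DHT pairs 9 were higher (30%) and 5 lower (16.7%), beside 21.3% and 20.9%.

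Most of the remaining lists held few calls. Listed genes that did not pass the filter on low values were not tested, and these were 24 of 36 histone genes, 24 of 32 neuroendocrine genes, 12 of 26 NF-kB targets, 11 of 34 immediate early genes, 10 of 42 TGF-beta and matrix genes, 9 of 26 YAP and TEAD targets, 8 of 48 interferon genes, 8 of 30 WNT and Notch genes, 7 of 44 ATF4 genes, 4 of 40 glycolysis and hypoxia genes, 4 of 13 metallothionein and zinc genes, 3 of 28 NRF2 genes, 2 of 40 androgen-induced genes and 1 of 25 in each of the sterol and heat shock lists. Of the marker lists 6 of 8 basal, 8 of 10 fibroblast, 6 of 8 endothelial, 11 of 12 leukocyte and 7 of 12 markers of androgen-independent cancer lines were below the filter. Of 31 proteasome genes 5 were higher (16.1%) and 4 lower (12.9%), below the 23.4% and 16.9% of all genes, between PSMD12 at 0.28 and PSMB4 at -0.17. With length and GC trends removed 1 was higher and 11 lower (35.5%), and PSMD12 was not called (0.08, adjusted p = 0.151 by limma). Of 23 immediate early genes 2 were higher and 7 lower, with DUSP4 at 0.35, KLF4 at -0.81 and FOS, at most 1.51 TPM in any library, at -0.30. Of 14 NF-kB targets 3 were higher and 4 lower (TNFAIP2 0.48, RELB -0.42), of 17 YAP and TEAD targets 3 and 4 (NUAK2 0.56, AMOTL1 -0.66), and of 22 WNT and Notch genes 3 and 1 (NRARP 0.51, HEY1 -0.40). Without the ENZ.DHT and APA.DHT pairs these counts were 2 and 7, 2 and 4, and 3 and 5, beside 21.3% of all genes higher and 20.9% lower. The lower shares of the YAP and TEAD list and of the WNT and Notch list were then near that of all genes. Of 8 neuroendocrine genes that passed the filter 4 were lower and none higher, NTS (neurotensin) at -0.68 ± 0.15 being the lowest. Markers of other cells were few. DST, of the basal epithelium, had -0.79 ± 0.10 and KRT14 was not called. COL3A1, of fibroblasts, had 0.65 ± 0.07 at a median of 2.02 TPM in replicate 1 and 3.82 TPM in replicate 2, COL1A1 was not called, and neither endothelial marker tested was called. Of the 5 testable markers of androgen-independent lines 2 were higher, among them VIM at 0.58 ± 0.06, and 3 lower, among them LAMB3 at -0.62 ± 0.13.

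Whether the replicate difference changed with DHT was tested for every gene. No gene was called (0%) by limma, with a smallest adjusted p of 0.233. Of the 16636 genes 3173 had an unadjusted p below 0.05 by limma, a larger share than the 0.05 that chance alone gives. With 4 pairs on each side, the absence of calls does not show that the replicate difference was the same with and without DHT. Fitted alone, the 4 DHT pairs gave 3111 calls (72.4% higher) and the 4 pairs without DHT 5812 (44.3% higher). In single pairs the G2/M median ran from 0.94 in the DHT pair to 1.62 in the ENZ.VEH pair, and all 8 were positive. The S phase median ran from 0.67 to 1.07. The lysosome median was negative in all 8 pairs, from -0.38 to -0.04, and so was the NRF2 median, from -0.86 to -0.09. The metallothionein and zinc list median went from -0.39 to -0.09 in 6 pairs and stood at 0.39 and 0.40 in the ENZ.DHT and APA.DHT pairs. In these 2 pairs MT1G still fell, by 2.26 and 1.62, and MT2A by 1.59 and 0.93, while SLC39A10 rose by 0.62 and 0.64. The summed level of the list fell from 801 to 295 TPM in the ENZ.DHT pair and from 523 to 294 TPM in the APA.DHT pair.

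**Figure D5:**
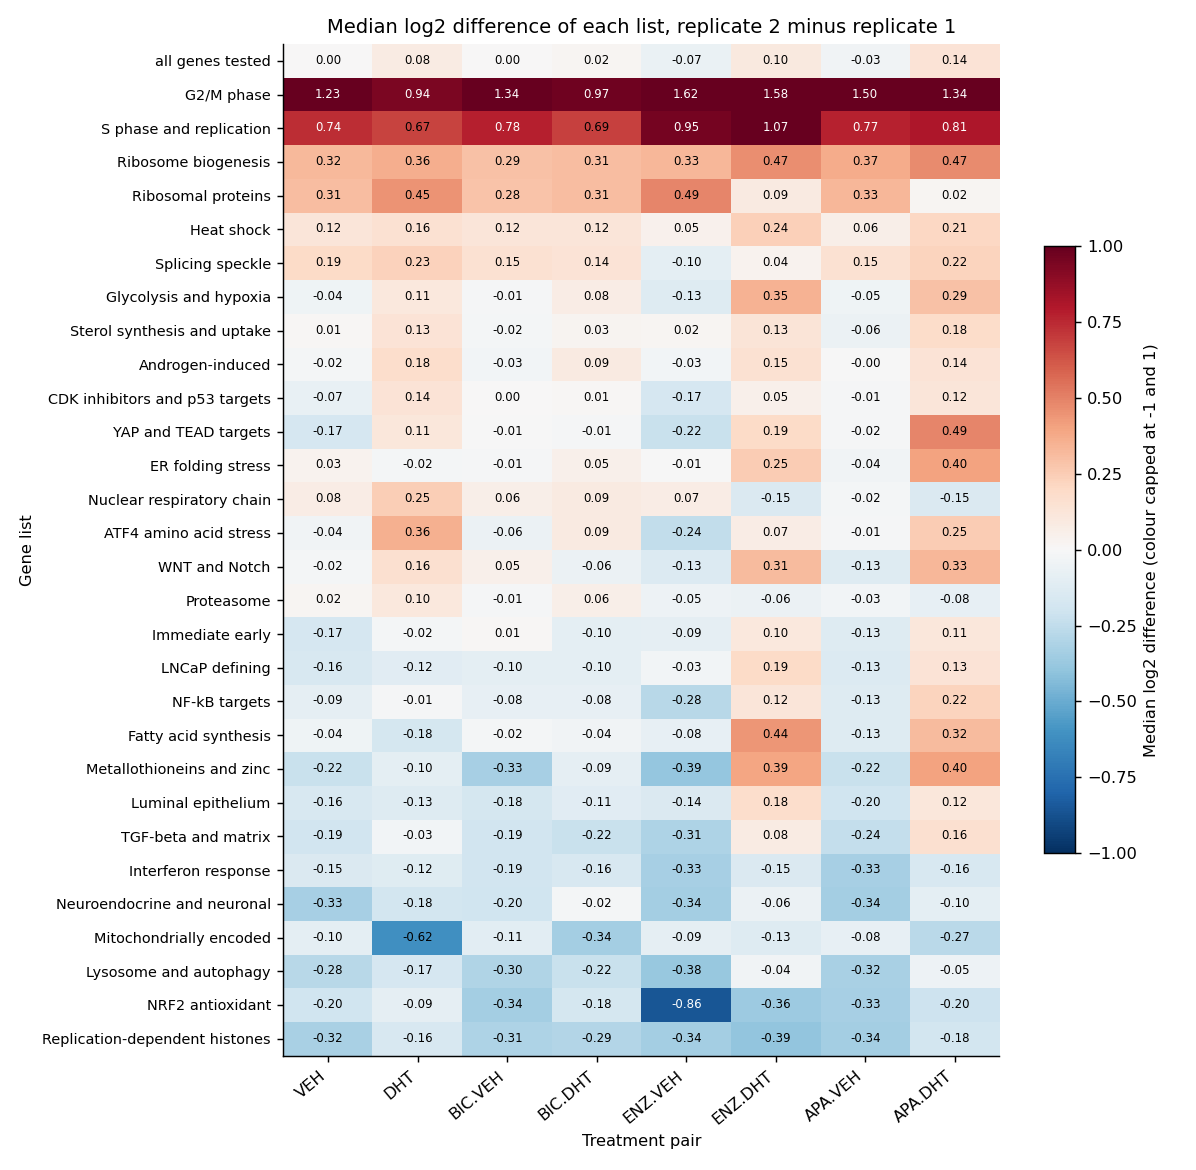
Median log2 difference of each gene list (replicate 2 minus replicate 1) in each of the 8 treatment pairs, drawn as a grid with lists in rows, treatment pairs in columns and colour capped at -1 and 1. The G2/M, S phase and ribosome biogenesis lists are positive in all 8 pairs and the lysosome and NRF2 lists negative in all 8.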

How the data were processed

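RNA of LNCaP cells was measured in 16 libraries by stranded poly(A) RNA-seq with 125 bp paired reads. The authors deposited one table of TPM values per gene, which the submitters' processing notes tie to FastQC 0.11.9, Trim Galore 0.6.5, STAR 2.7.2b and RSEM 1.3.3 on GRCh38. TPM keep no read counts, so the depth behind a value is unknown. Groups and replicate numbers came from the labels. Values were taken as log2(TPM + 1), which understates changes of low genes, and genes with 1 TPM or more in 2 or more of 16 libraries were kept (16636 of 60642 symbols; 26439 were listed at 0 throughout). Replicate 2 minus replicate 1 was fitted with limma 3.58.1 (R 4.3.3, trend) with treatment as a term and Benjamini-Hochberg adjustment at 0.05. Library measures were tested by exact permutation of labels within pairs (256 relabellings, scipy 1.17.1). The replicate differences of any 2 treatments were correlated across genes (28 treatment combinations, Pearson r 0.204 to 0.635). Libraries were paired by treatment and compared by replicate number, and this correlation does not show what the libraries of one number shared. The fit was tested on simulated data. Members and gene lists were chosen with earlier results of these data known. Genes named were 16 fixed genes (other genes the rules name are not reported here), the 12 highest and 12 lowest called genes with a mean of 5 TPM or more and 1 sign in all 8 pairs (without clone-named genes), and the highest and lowest called member of each list. Other genes named in the text were picked from the lists after their values were seen. Promoters, 250 bases before each start, came from RefSeq (GRCh38.p14).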

Additional observations from a re-analysis of the deposited data

Results flagged for a closer look

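Among 127 values examined, the differences of 8 pairs lay far from the other 7 of their value, and chance alone gives about 1 in 20. The mitochondrially encoded list had a median of -0.617 in the DHT pair, and the NRF2 list a median of -0.856 in the ENZ.VEH pair. Single genes with 1 pair far from the rest were ASNS (0.951 in the DHT pair), DUSP4 (1.04 in the DHT pair), EGLN3 (-1.43 in the ENZ.VEH pair), ME1 (-0.911 in the ENZ.VEH pair), CHORDC1 (0.945 in the APA.DHT pair) and MALAT1 (-2.615 in the ENZ.DHT pair).

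For 3 lists every pair with DHT moved one way and every pair without DHT the other. The mean of the pairs with DHT minus the mean of the pairs without it was 0.263 for glycolysis and hypoxia, 0.281 for the ATF4 response and 0.158 for the androgen-induced genes. The median over all genes tested moved the same way, with a mean of -0.025 in the pairs without DHT and 0.085 in the pairs with DHT. These differences between list medians were not tested, and no single gene was called for a change of the replicate difference with DHT.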

How the results depend on the processing

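Called genes fell to 3111 with the 4 DHT pairs alone (2251 higher, 860 lower). With the 4 pairs without DHT 5812 were called (2573 higher, 3239 lower). Without the treatment pairing 1734 were lower. Leaving out 1 pair gave 5771 to 6316 called (3360 to 3863 higher, 2318 to 2846 lower) and 0 to 1 gene whose difference changed with DHT, the 1 being found without the ENZ.VEH pair. List medians that moved were G2/M (1.64), basal (-0.84) and fibroblast (0.39) with pseudocount 0.1, histones (-0.19), neuroendocrine (-0.0036), basal (-0.0246), fibroblast (0.0122) and leukocyte (-0.0196) with no filter, sterol (-0.0117), heat shock (0.0317), interferon (-0.28), androgen-induced (-0.0673), proteasome (-0.0868) and splicing (-0.0175) with length and GC trends removed, CDK inhibitors (-0.0613) and sterol (-0.0283) with the pairs without DHT, androgen-induced (0.18) with the pairs with DHT, and sterol (-0.0132) without the ENZ.DHT and APA.DHT pairs, an alternative chosen after seeing the data. With the replicate block the median residual SD within treatments was 0.222 for G2/M, 0.160 for S phase, 0.118 for ribosomal proteins and 0.119 for lysosome genes, and 4559 genes were called for DHT against VEH. Without 1 pair the column total differed by 506 to 1370 TPM and the genes at 1 TPM by -13.4 to 42.9. FASN reversed to 0.0464 with the trends removed. Of the 85 named genes, 25 lost their call in 44 fits under alternatives, and 1 (CCND1) gained it in 4. The cause of these changes was not tested.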
